A study of Mus musculus with 6 samples.

Results

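Rab GTPases are small proteins that mark the membranes of the cell and direct the traffic between them. Each cycles between an active form bound to GTP, which recruits effectors such as tethers, motors and sorting proteins, and an inactive form bound to GDP. Guanine nucleotide exchange factors (GEFs) switch a Rab on, GTPase-activating proteins (GAPs), most of which carry a TBC domain and many of which are named Tbc1d, switch it off, and escort proteins add its lipid anchor and carry it through the cytosol. In epithelial cells this traffic delivers and recycles adhesion molecules and receptors at the cell surface, and in neurons and gland cells it releases vesicles and granules.

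The members are the 57 entries, of 8078 in the table, that name a single gene and whose symbol begins with Rab and a number or with Tbc1d; entries that join several symbols were left out. They comprise 41 Rab GTPases, 5 partners named after a Rab and 11 Tbc1d genes, and 56 of them had a mean of at least 1 FPKM and were tested; the exception was Rab3c. Their expression was measured by RNA sequencing of horizontal basal cells, the reserve stem cells of the olfactory epithelium. The cells were sorted for the red fluorescent protein TdTomato from 12-week-old mice carrying B6;KRT5-CreER;Ai9 fl(Stop)TdTomato. In these mice tamoxifen, given 2 weeks earlier to every animal of both groups, lets a Cre recombinase driven by the keratin 5 promoter unlock the reporter, so the sort holds any cell descended from one that had used that promoter. The uninjured group had 3 libraries from mice not exposed to the gas. The injured group had 3 libraries from mice that breathed 180 ppm of methyl bromide, a gas that destroys most of the epithelium above the basal cells, for 8 h and were sampled 18 h later. Each library pooled several animals, so the spread given here is that between pools.

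Of the 8 horizontal basal cell markers looked for, 6 had an entry of their own and none stood at the lowest value, with Trp63, the transcription factor of these cells, at 157 to 194 FPKM in uninjured and 99.5 to 140 in injured libraries. For the other markers the groups overlapped. Means without and with injury were 14.9 and 30.6 FPKM for Itga6, 39.7 and 52.8 for Itgb4 and 15.1 and 21.9 for Icam1. They were 24.7 and 27.7 for Egfr and 8.91 and 8.48 for Cd44. Read depth was unknown, and summed FPKM, fragments scaled by transcript length and library size, was 164265 to 231755 per library. Injured replicate 2 stood apart from the other injured libraries, with a Pearson r over all genes (log2 scale; genes are no replicates) of 0.734 and 0.754 with them, against 0.849 between injured replicates 1 and 3. Xist was at 27.0 to 33.8 FPKM in uninjured and 0.0645 to 0.561 in injured libraries, and no label gives the animals' sex, so sex and injury cannot be told apart in any comparison here. Because each library is a sorted bulk sample, fewer cells of a type and less RNA per cell cannot be told apart.

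No Rab or Tbc1d gene passed the test between injured and uninjured libraries, and most had small changes. A change is the mean log2(FPKM + 1) of the injured libraries less that of the uninjured ones, a scale that makes shifts of low genes look smaller. With limma on all 7987 genes tested and Benjamini-Hochberg adjustment, 0 of 56 members were higher and 0 lower at an adjusted p of 0.05, beside 0% and 0.0125% of all genes. At a p of 0.05 without adjustment the counts were again 0 and 0 of 56, where 7.15% of all genes were higher and 4.04% lower, and the smallest unadjusted p of a member was 0.0563, for Rab11a. The median change was 0.17 for the members and 0.16 for all genes, and 66.1% of members and 62.9% of all genes had a positive change. A change smaller than 0.5 in either direction was found for 48 of 56 members (85.7%) and for 66.0% of all genes, and 1 member, Rab2b, exceeded 1, as did 8.61% of all genes. The injured libraries all lay above the uninjured ones for 3 members (5.36%, against 12.0% of all genes) and all below for 1 (1.79%, against 6.75%). With a library left out the groups stood apart for 7 to 21 members, the most without injured replicate 2 (16 higher or 28.6% and 5 lower or 8.93%, against 29.7% and 14.4% of all genes). The small number of libraries limits what these counts can show: in simulated data for this comparison limma recovered 26.9% of changes of 2 on the log2 scale and 5.97% of changes of 1. There 67 of 7987 genes were given each of these changes, with the spread within groups seen here, injured replicate 2 included. Recovery would differ with more changed genes or another spread.

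**Figure D1:**
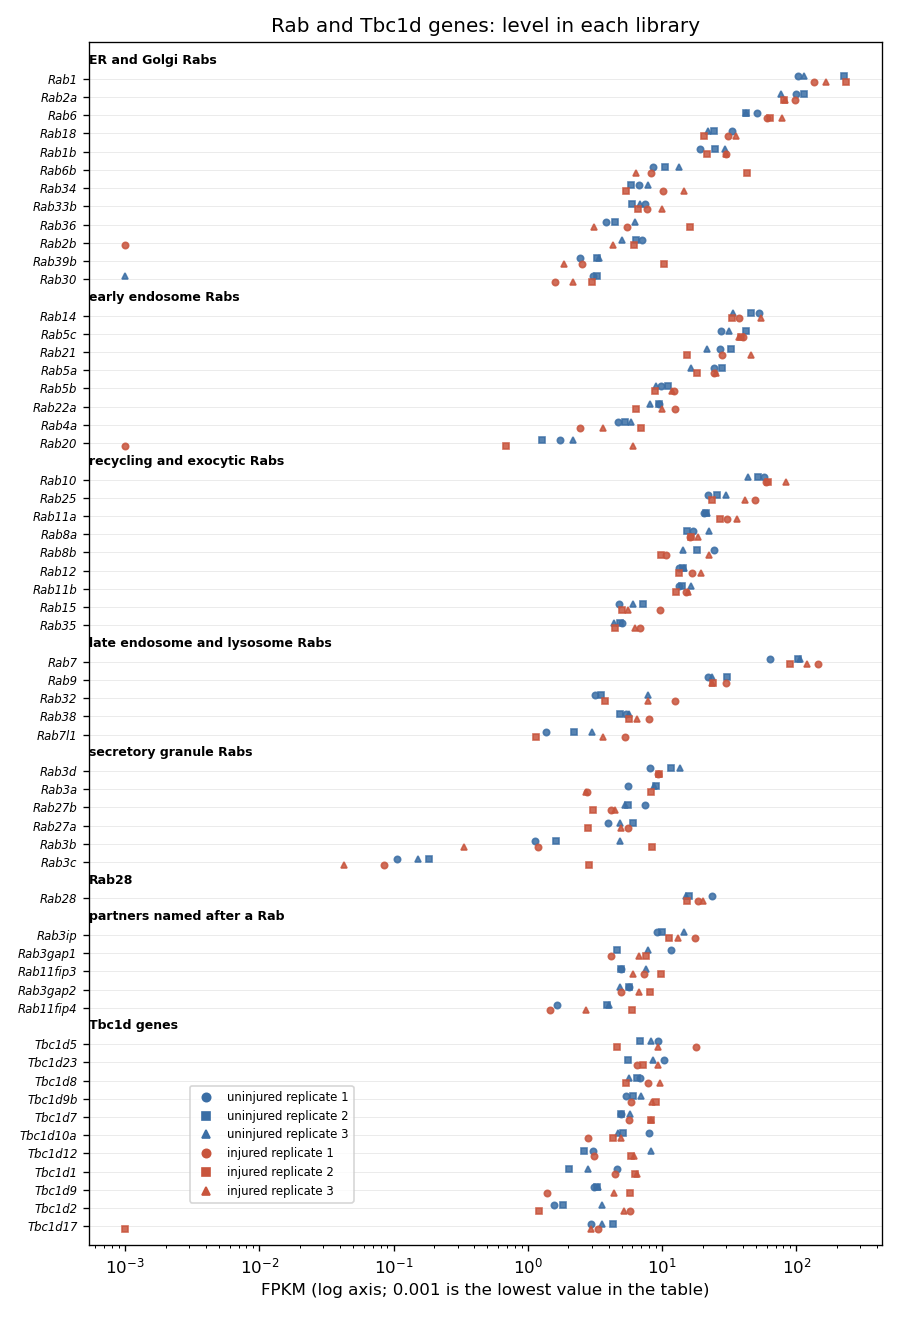
FPKM (log axis) of all 57 members in each of the 6 libraries, grouped by role, with uninjured libraries in blue and injured libraries in red and a marker shape for each replicate number. Points of both colours overlap for most genes, while Rab10, Rab11a and Rab6 show every red point to the right of every blue one, and Rab6b, Rab36, Rab39b, Rab3b and Rab3c show injured replicate 2 far to the right.

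The family covered a wide range of levels. FPKM is scaled by transcript length, so levels can be set side by side between genes. The 5 Rab GTPases with the highest means over the 6 libraries, Rab1, Rab7, Rab2a, Rab10 and Rab6, made up 49.7% of the summed FPKM of all 41 Rab GTPases. Of the 41, 23 lay above the median level of the table, 8.69 FPKM, as did 1 of the 11 Tbc1d genes. All members together summed to 915 to 1088 FPKM in uninjured and 1088 to 1192 in injured libraries. These sums depend on the entry Mir703, which took a larger part of the summed FPKM in uninjured libraries. With it left out, the members made up 0.651%, 0.671% and 0.576% of the sum without injury. After injury they made up 0.587%, 0.749% and 0.632%, and the groups overlapped.

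Rabs of the endoplasmic reticulum and Golgi had the highest summed level of any role in each library, and among 12 tested, 10 changes were positive with a median of 0.29, and 0 passed. After the 3 rescalings 8 of 12 were positive with a median of 0.14 to 0.20, and without injured replicate 2 it was 7 of 12 with 0.14. Rab1 (now Rab1a), which carries cargo from the endoplasmic reticulum to the Golgi, was the most abundant member, at 102, 225 and 113 FPKM in uninjured replicates 1 to 3 and, in the same order, at 136, 234 and 167 after injury. Both groups held a library above 200 FPKM, and the groups overlapped. Rab2a, which acts between the same compartments, was at 98.8, 113 and 76.8 FPKM in uninjured and 97.9, 80.7 and 82.7 in injured libraries, again overlapping.

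Rab6 (now Rab6a), which drives transport within and out of the Golgi, separated the groups. It was at 51.0, 42.5 and 42.0 FPKM without injury and at 60.2, 63.1 and 77.9 after it. Every injured library lay above every uninjured one, though the change of 0.56 ± 0.27 (SE, n = 3 per group) did not pass (limma adjusted p = 0.476). With each of 3 rescalings of the libraries (upper quartile, quantile, or leaving out the entry Mir703) the change stayed positive, at 0.37 to 0.40, and the groups overlapped. Mir703 alone took 22.0% to 25.4% of the summed FPKM in uninjured and 8.01% to 18.6% in injured libraries. Rab2b, the paralog of Rab2a, was at 7.13, 6.34 and 5.05 FPKM without injury and at 0.001, 6.14 and 4.30 after it. Its change of -1.08 ± 0.68 (limma adjusted p = 0.571) was the most negative among members and rested on injured replicate 1, which stands at the lowest value of the table: without that library the change was -0.21. Rab18, Rab1b, Rab33b and Rab34 lay between 5.36 and 35.4 FPKM in all 6 libraries with overlapping groups, and Rab30 was at 3.06, 3.30 and 0.001 without injury and at 1.59, 3.001 and 2.18 after it.

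Early endosome Rabs showed no common shift, with 4 of 8 changes positive, a median of 0.01 and 0 passing; after each rescaling 7 of 8 were negative, and the median ran from -0.17 without injured replicate 3 to 0.18 without injured replicate 2. Rab14, which acts between endosomes and Golgi, was at 52.4, 45.8 and 33.7 FPKM without injury and at 37.4, 32.9 and 54.7 after it. Rab5c, of the set that drives fusion of early endosomes, was at 27.6, 41.9 and 31.4 and at 40.0, 38.8 and 37.5. In both genes the 3 injured values lay within or across the uninjured range. Rab5a had a change of 0.00 ± 0.29, Rab5b of 0.13 ± 0.25, Rab21, which traffics integrins, of 0.03 ± 0.38 and Rab22a of 0.05 ± 0.29. Rab4a, a Rab of fast recycling, was at 4.71 to 5.90 FPKM without injury and 2.46 to 7.02 after it. Rab20 was low, at 1.75, 1.28 and 2.16 FPKM without injury, and stood at 0.001, 0.690 and 6.02 in the injured libraries.

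Rabs of recycling and exocytosis, which bring receptors and junction proteins back to the surface, included Rab10 and Rab11a, whose injured libraries were all higher. They were 2 of 9 or 22.2%, against 12.0% of all genes. After each rescaling it was 1 of 9, against 7.19% to 8.7% of all genes. Of 9 tested, 6 changes were positive with a median of 0.20, and 0 passed. After the 3 rescalings 5 of 9 were positive with a median of 0.01 to 0.05, and without injured replicate 2 the median was 0.34. Rab11a, the Rab of the recycling endosome, was at 20.5, 21.2 and 21.5 FPKM in uninjured libraries, values close to each other, and at 30.2, 27.0 and 36.3 in injured ones. The injured libraries were higher in 3 of 3, with a change of 0.53 ± 0.25 (limma adjusted p = 0.461), and the groups stayed apart after all 3 rescalings, with changes of 0.35 to 0.38. Rab10, which carries vesicles to the basolateral surface, was at 56.9, 51.6 and 43.8 FPKM and at 59.1, 61.4 and 83.2. Its change was 0.40 ± 0.28 (limma adjusted p = 0.594), injured replicate 1 lay just above the highest uninjured library, and the groups overlapped after each rescaling. The change was 0.22 to 0.24 after the rescalings and 0.25 without injured replicate 3.

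Rab25, an epithelial relative of Rab11a, split the injured libraries. It was at 21.9, 25.7 and 30.1 FPKM without injury and at 49.3, 23.5 and 41.1 after it. Replicates 1 and 3 lay above every uninjured library, replicate 2 within their range, and the change over all 6 libraries was 0.48 ± 0.32 (limma adjusted p = 0.579). Rab11b, the closest paralog of Rab11a, was at 13.3 to 16.4 FPKM without injury and 12.8 to 15.5 after it, a change of -0.01 ± 0.24. After upper-quartile scaling and quantile normalization all its injured libraries were lower, as were those of 11.4% and 10.8% of all genes. Rab8a and Rab8b, which act in exocytosis and at the cilium, were at 15.3 to 22.3 and 14.3 to 24.3 FPKM without injury and at 16.0 to 18.5 and 9.82 to 22.3 after it. Rab12, Rab15 and Rab35 had changes of 0.20, 0.12 and 0.24, each smaller than its standard error.

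The RefSeq promoter windows of the 3 members with all injured libraries higher are shown because these genes share that direction. Each window spans 300 bases around a start site in build GRCm38.p6, whereas mm9 is the build named in the submitters' processing notes, so the positions are those of the window table. Windows were found for 48 of 57 members, 3 of them by an older symbol. Capitals mark matches on either strand to the GC box (GGGCGG), the CCAAT box (CCAAT), the E-box (CACGTG), the cAMP response element (TGACGTCA), the AP-1 site (TGANTCA), the NRF1 core (CGCATGCG) or the Ebf core (CCCNNGGG), none of which contains another.
Rab11a, chr9:64737707-64738006, minus strand: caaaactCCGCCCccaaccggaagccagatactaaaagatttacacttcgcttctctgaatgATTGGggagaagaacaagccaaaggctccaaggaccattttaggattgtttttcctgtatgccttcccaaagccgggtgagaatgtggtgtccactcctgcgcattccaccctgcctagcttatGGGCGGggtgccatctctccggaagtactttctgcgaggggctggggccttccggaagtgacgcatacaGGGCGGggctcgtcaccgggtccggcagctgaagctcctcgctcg
Rab10, chr12:3309920-3310219, minus strand: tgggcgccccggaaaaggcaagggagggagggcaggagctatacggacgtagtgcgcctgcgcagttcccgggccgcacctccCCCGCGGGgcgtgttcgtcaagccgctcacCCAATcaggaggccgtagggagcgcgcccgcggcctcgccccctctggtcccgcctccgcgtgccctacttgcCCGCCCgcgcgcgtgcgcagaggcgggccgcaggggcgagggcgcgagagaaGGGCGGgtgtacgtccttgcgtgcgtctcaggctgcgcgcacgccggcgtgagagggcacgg
Rab6 (now Rab6a), chr7:100607336-100607635, plus strand: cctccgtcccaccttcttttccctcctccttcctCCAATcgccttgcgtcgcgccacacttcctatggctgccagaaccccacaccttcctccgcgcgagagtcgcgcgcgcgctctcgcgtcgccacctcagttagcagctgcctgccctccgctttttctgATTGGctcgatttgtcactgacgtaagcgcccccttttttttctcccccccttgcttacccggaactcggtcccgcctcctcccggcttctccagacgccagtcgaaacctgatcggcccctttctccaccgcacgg
The windows of Rab11a, Rab10 and Rab6 had a GC content of 56.3%, 74.7% and 62.7%. The GC box was in those of Rab11a and Rab10, the CCAAT box in all 3, and the Ebf core in that of Rab10. Across the 60 windows of members the GC box was in 66.7% (35.7% of all 32851 RefSeq windows), the CCAAT box in 40.0% (37.4%), the E-box in 11.7% (7.15%), the cAMP response element in 5.00% (1.79%), the AP-1 site in 5.00% (7.81%), the NRF1 core in 5.00% (1.87%) and the Ebf core in 18.3% (13.7%). The 32851 windows were not limited to genes tested here, so the shares are not set against those of genes expressed in these cells. The median GC content was 63.3% in member windows and 52.7% in all windows, and its part in these shares was not tested.

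**Figure D2:**
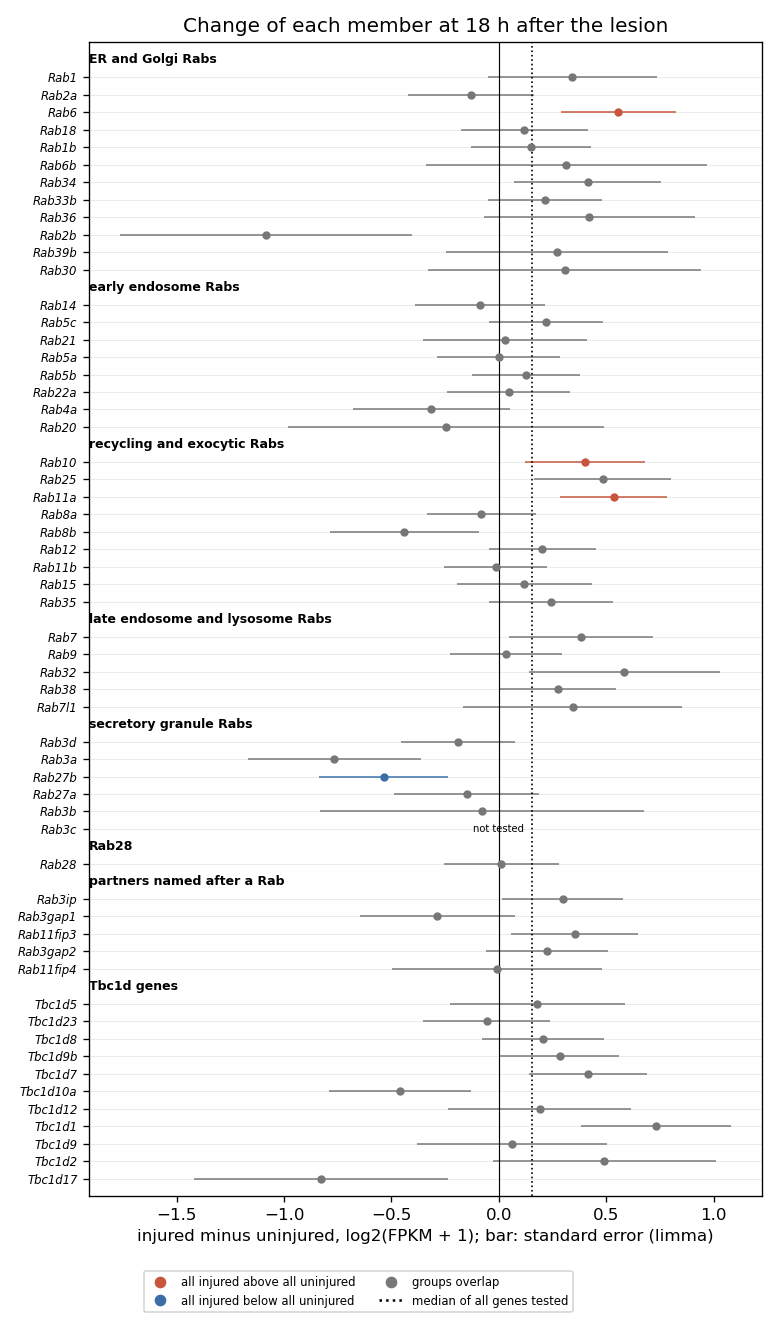
Change of each member tested on the log2(FPKM + 1) scale (x axis, injured minus uninjured), with its standard error from limma as a bar, grouped by role. Most members lie near the dotted line at the median of all genes, 0.16; Rab6, Rab10 and Rab11a, with injured libraries all higher, are red, and Rab27b, with all lower, is blue.

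Late endosome and lysosome Rabs leaned upward without passing: all 5 changes were positive with a median of 0.34, against 0.155 for all genes. After each rescaling 4 of 5 were positive with a median of 0.188 to 0.215. The median was 0.15 without uninjured replicate 1, against 0.139 for all genes. Without injured replicate 2 it was 0.56, against 0.179. Rab7, which directs traffic into lysosomes, was at 63.7, 103 and 106 FPKM without injury and at 144, 90.2 and 119 after it. Replicates 1 and 3 of the injured group exceeded every uninjured library and replicate 2 did not, and the change was 0.38 ± 0.33 (limma adjusted p = 0.674). Rab9, of the route from late endosome to Golgi, was at 21.8, 30.6 and 23.5 FPKM and at 30.1, 23.9 and 23.6. Rab32, Rab38 and Rab7l1 (now Rab29), Rabs of lysosome-related organelles and lysosomes, were lower, at 3.14 to 7.86, 4.85 to 5.71 and 1.36 to 3.02 FPKM without injury and at 3.73 to 12.4, 5.62 to 7.97 and 1.14 to 5.30 after it. In each of these 3 genes injured replicate 2 was the lowest injured library. Rab28, a Rab of the cilium, was at 23.4, 15.9 and 15.1 and at 18.6, 15.4 and 20.3, a change of 0.01 ± 0.27.

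Rabs of secretory granules and synaptic vesicles leaned the other way. All 5 tested had a negative change with a median of -0.19, and 0 passed; after the 3 rescalings 4 to 5 of 5 were negative and the median was -0.33 to -0.36. Without a library the median ran from -0.16 (uninjured replicate 3) to -0.41 (injured replicate 2), with -0.38 without uninjured replicate 1 and -0.31 without injured replicate 1. Rab27b, which docks secretory granules at the membrane, was at 7.42, 5.53 and 5.29 FPKM without injury and at 4.15, 3.06 and 4.44 after it. Every injured library lay below every uninjured one, as after all 3 rescalings, and with the values as deposited no other member did so. Its change was -0.54 ± 0.30 (limma adjusted p = 0.532). Rab27a, its paralog, was at 3.94 to 6.06 and 2.79 to 5.60 FPKM, with overlapping groups.

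Rab3a, the Rab of synaptic vesicles, was at 5.53, 8.97 and 8.68 FPKM without injury and at 2.74, 8.30 and 2.70 after it. Replicates 1 and 3 were below every uninjured library and replicate 2 lay among them, and the change was -0.77 ± 0.40 (limma adjusted p = 0.501), and -1.21 without injured replicate 2. Rab3d, a Rab of exocrine granules, was at 8.07, 11.6 and 13.6 FPKM and at 9.26, 9.42 and 9.54, with overlapping groups. Markers of other cells in the sort also differed between the groups. The summed level of the 6 olfactory neuron markers with an entry, of 8 looked for, was 427 to 737 FPKM without injury and 143, 357 and 123 in injured replicates 1 to 3, with none at the lowest value. Its largest part was Stoml3, at 316 to 561 FPKM without injury and at 111, 168 and 94.0 after it. Adcy3 and Ano2 were also lower in every injured library, whereas groups overlapped for Cnga2, Gng13 and Rtp1. Injured replicate 2 was at 15.1 FPKM for Cnga2 and 32.8 for Rtp1, beside 11.6 to 15.1 and 12.6 to 14.3 without injury. The summed level of 4 of 8 gland markers was 3120 to 5026 and 1215 to 2427 FPKM, nearly all of it Plunc, at 3023 to 4978 and 1182 to 2290. Of the other gland markers, Lcn11 was at 28.4, 13.8 and 37.1 FPKM without injury and at 7.41, 0.001 and 0.001 after it, Ltf went the other way, at 21.4 to 59.1 and 26.1 to 112, and Sox9 was at 13.1 to 13.3 and 7.34 to 24.3. Sustentacular markers, 6 of 8, summed to 177 to 196 FPKM and to 106 to 133. Of these, Cyp1a2, with means of 50.9 and 12.2 FPKM, and Muc2 were lower in every injured library. Groups overlapped for Ermn, Sult1c1, Notch2 and Steap4. The part of those cells in the levels of Rab3a, Rab3d and Rab27b was not tested.

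In injured replicate 2, 3 members, Rab6b, Rab36 and Rab39b, were at least 2-fold above each of the other 5 libraries. They are 5.36% of the members, beside 5.10% of all genes tested, so the share is that of the whole table and the genes, picked after their values were seen, are given as a description of that library. Rab6b, the neuronal paralog of Rab6, was at 8.59, 10.5 and 13.4 FPKM in uninjured and at 8.31, 43.0 and 6.43 in injured replicates 1 to 3. Rab39b, implicated in synapse formation, was at 2.47, 3.29 and 3.41 and at 2.54, 10.4 and 1.85. Rab36 was at 3.81, 4.44 and 6.24 and at 5.44, 16.2 and 3.12. In all 3 genes the other injured libraries lay below the highest uninjured one.

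The same library was the highest for Rab3b and for Rab3c, both Rabs of neuronal vesicles. Rab3b was at 1.13, 1.62 and 4.85 FPKM without injury and at 1.20, 8.47 and 0.335 after it. Rab3c, the member too low to be tested, was at 0.106, 0.184 and 0.151 and at 0.0847, 2.88 and 0.0430. Most precursor markers were highest in that library too. The summed level of 7 of 8 markers of globose basal cells and immature neurons was 28.3 to 44.8 FPKM without injury and 32.9, 318 and 24.2 after it, with none at the lowest value. Among them Gap43, of growing axons, was at 113 FPKM in injured replicate 2 and at 2.44 to 13.1 in the other 5 libraries, and Stmn2, a tubulin regulator of growing neurites, at 135 and at 6.04 to 18.7. With Gng8, at 43.3 FPKM there, these genes made up most of the sum. Kit and Neurod1 were also highest there, at 7.51 and 9.71 FPKM, and Lgr5 was not, at 4.04 FPKM beside 3.72 and 8.20 in injured replicates 1 and 3. The 6 basal cell markers summed to 170 FPKM there and to 260 to 346 elsewhere. The part of these cells in the high Rab values of that library was not tested.

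**Figure D3:**
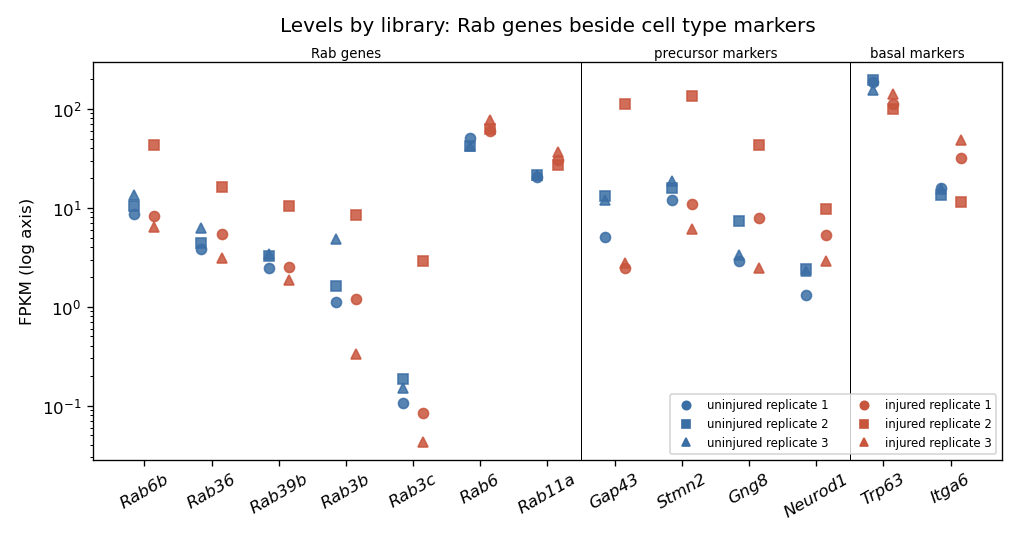
FPKM (log axis) in each library for 7 Rab genes, 4 precursor markers and 2 basal cell markers, with uninjured libraries in blue and injured libraries in red; the precursor marker Lgr5, not plotted, was highest in injured replicate 3. Injured replicate 2 (red square) is the highest library for Rab6b, Rab36, Rab39b, Rab3b and Rab3c and for Gap43, Stmn2, Gng8 and Neurod1, and the lowest for Trp63 and Itga6, while for Rab6 and Rab11a it sits with the other injured libraries.

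The windows of Rab6b and Rab39b, high in injured replicate 2, are shown for comparison with those of the 3 members above. Capitals mark the same motifs.
Rab6b, chr9:103111824-103112123, plus strand: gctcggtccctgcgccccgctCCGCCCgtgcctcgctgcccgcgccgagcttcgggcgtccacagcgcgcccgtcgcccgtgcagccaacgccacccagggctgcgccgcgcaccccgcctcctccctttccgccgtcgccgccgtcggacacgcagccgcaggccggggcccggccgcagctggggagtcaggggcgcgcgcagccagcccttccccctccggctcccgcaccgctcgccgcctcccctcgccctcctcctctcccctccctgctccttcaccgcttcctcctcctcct
Rab39b, chrX:75578182-75578481, minus strand: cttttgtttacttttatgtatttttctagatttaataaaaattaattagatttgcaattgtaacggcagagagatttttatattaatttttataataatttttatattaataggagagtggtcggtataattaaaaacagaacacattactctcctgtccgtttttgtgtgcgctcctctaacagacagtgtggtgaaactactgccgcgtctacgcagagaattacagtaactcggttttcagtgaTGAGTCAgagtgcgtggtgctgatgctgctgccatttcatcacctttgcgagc
The Rab6b window had a GC content of 78.7% and held a GC box, and that of Rab39b had 35.7% and held an AP-1 site and no GC box.

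Paralogs were also compared within each library, as shares of the summed FPKM of a set, which a scaling factor between libraries cannot alter. Of 22 shares in 9 sets, 2 separated the groups, both lower after injury, and no test was made of them. Shares of this kind were not computed for other genes, so this count has no background of its own. By level, 12.0% of all genes separated higher and 6.75% lower. Rab3a made up 37.3%, 40.1% and 31.8% of the Rab3 set in uninjured libraries and 20.6%, 28.6% and 21.4% in injured ones. In injured replicate 2 the level of Rab3a itself was not lower, at 8.30 FPKM beside 5.53 to 8.97 without injury. Rab3b and Rab3c took 29.1% and 9.89% of the set in that library. Rab11b made up 23.9%, 23.2% and 24.2% of the set of Rab11a, Rab11b and Rab25 without injury and 16.0%, 20.2% and 16.7% after it. The difference in mean share was -12.9 percentage points for Rab3a and -6.13 for Rab11b. Rab6b took 14.4%, 19.7% and 24.2% of the Rab6 set without injury and 12.1%, 40.6% and 7.62% after it, so that injured replicate 2 held the highest share and the other injured libraries the lowest. In the Rab5 set, Rab5b took 13.7% to 15.9% without injury and 13.6% to 16.0% after it. How reads matching several paralogs were assigned was not given in the sources used here, so shares of close paralogs are uncertain.

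**Figure D4:**
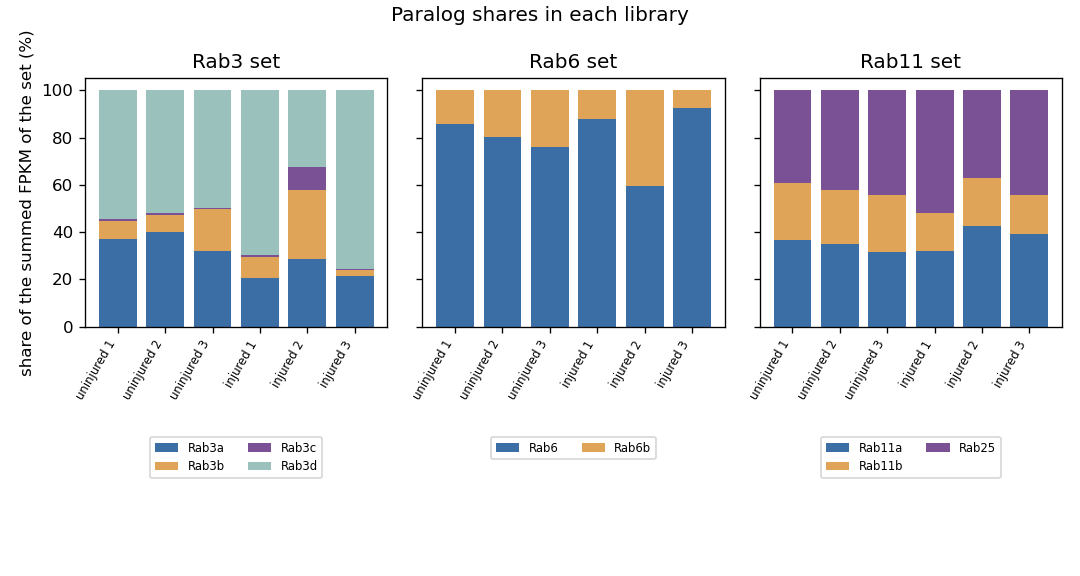
Share of each paralog in the summed FPKM of its set (y axis, %) for the Rab3, Rab6 and Rab11 sets in each library (x axis). Rab3a and Rab11b take a smaller share in every injured library than in any uninjured one, and Rab6b takes its largest share, 40.6%, in injured replicate 2.

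Among the 5 partners named after a Rab, 3 changes were positive, with a median of 0.22 (0.06 to 0.09 after rescaling, 0.08 without injured replicate 2 and 0.34 without injured replicate 1), and 0 passed. Rab3ip, also known as Rabin8, a GEF for Rab8, was at 9.08, 9.98 and 14.7 FPKM without injury and at 17.5, 11.3 and 13.1 after it. Rab3gap1, the catalytic subunit of a complex that acts on Rab3 and Rab18, was at 11.7, 4.58 and 7.85 and at 4.16, 7.64 and 6.77, and its partner subunit Rab3gap2 at 4.89 to 5.71 and 4.94 to 8.08. Groups overlapped for each of these genes. The Rab11 effectors Rab11fip3 and Rab11fip4 were at 4.92 to 7.59 and 1.66 to 3.99 FPKM without injury and at 6.06 to 9.77 and 1.46 to 5.99 after it, with injured replicate 2 the highest library in both.

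The Tbc1d genes stood at lower levels than the Rabs, with a median level of 4.97 FPKM against 10.5 for the Rab GTPases. Of 11, 8 changes were positive and 3 negative, the median was 0.19, 0 passed and in 0 did the groups separate. After the 3 rescalings 7 were positive with a median of 0.03 to 0.06. Then 1 to 2 genes, Tbc1d10a and Tbc1d17, had all injured libraries lower, as did 10.3% to 11.4% of all genes. The median was 0.08 without uninjured replicate 2 and 0.04 without injured replicate 3. Tbc1d1, a regulator of glucose transporter traffic, had the largest positive change among members, 0.73 ± 0.35 (limma adjusted p = 0.476). It was at 4.60, 2.03 and 2.81 FPKM without injury and at 4.45, 6.29 and 6.47 after it, and uninjured replicate 1 lay above injured replicate 1. The most abundant were Tbc1d5, a GAP for Rab7, at 9.30, 6.88 and 8.23 and at 17.8, 4.65 and 9.26, and Tbc1d23, a Golgi tether, at 10.4, 5.59 and 8.58 and at 6.53, 7.15 and 9.39. Tbc1d17 was at 2.95, 4.32 and 3.55 FPKM without injury and at 3.34, 0.001 and 2.94 after it. Tbc1d2, Tbc1d7, Tbc1d8, Tbc1d9, Tbc1d9b, Tbc1d10a and Tbc1d12 had changes from -0.46 to 0.49 with overlapping groups.

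Genes that load and unload Rabs but carry other names were counted from lists by role. Of 43 GEF genes listed, 27 had an entry; 22 changes were positive with a median of 0.28, 0 passed, and 5 of 27 were higher at a p of 0.05 without adjustment, where 7.15% of all genes were. The injured libraries were all higher for 6 of 27 (22.2%, against 12.0% of all genes) and all lower for 0. After the 3 rescalings 17 to 19 changes were positive with a median of 0.14 to 0.17, and without injured replicate 1 the median was 0.45. The rescalings left 4 to 5 genes with all injured libraries higher, against 7.19% to 8.7% of all genes. They left 0 to 1 with all lower, against 10.3% to 11.4%. Rin1, a Rab5 GEF, was at 2.10, 2.26 and 2.29 FPKM without injury and at 8.64, 3.63 and 7.72 after it, and passed without injured replicate 2. Dennd4a, a GEF for Rab10, was at 4.28, 4.25 and 3.89 and at 8.79, 9.61 and 6.51. Dennd1c, a GEF for Rab35, was at 0.305, 1.35 and 1.12 and at 6.72, 5.21 and 2.37. Each of these 3 was higher in every injured library than in any uninjured one, also after each rescaling.

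Of 60 effectors listed, 35 were tested, 17 with a positive and 18 with a negative change and a median of -0.01, and 0 passed. After the 3 rescalings 13 to 14 were positive and 21 to 22 negative, with a median of -0.15 to -0.17. The injured libraries were all higher for 2, Exoc6 and Optn (5.71%, against 12.0% of all genes), and all lower for 1, Rabep2 (2.86%, against 6.75%), shares below those of the whole table. Rabep2, an effector of Rab5, was at 13.5, 10.2 and 10.7 FPKM without injury and at 8.01, 5.48 and 6.23 after it. Optn, which binds Rab8, was at 2.99, 2.42 and 2.19 and at 3.95, 5.09 and 4.92. Of 10 genes listed under escort and prenylation, 8 were tested, with 7 positive changes (4 to 5 of 8 after rescaling) and 0 passing. The median was 0.21 (0.04 to 0.07 after rescaling, 0.09 without injured replicate 1). The largest change on that list, 1.33, was that of Mcts1, which stood at 0.001 in uninjured replicate 3. Mcts1 is not itself a Rab escort or prenylation gene, though it is counted in the 7 positive changes and in the median. Gdi2, a GDP dissociation inhibitor that extracts Rabs from membranes, was the most abundant, at 126, 110 and 114 FPKM and at 137, 110.0 and 116, with overlapping groups. The 4 tested GAPs of the TBC family with other names, of 10 listed, had 2 positive and 2 negative changes (1 and 3 after each rescaling), and Sgsm3, at 2.95, 2.47 and 2.31 FPKM and at 2.04, 1.64 and 0.001, was lower in every injured library. Of 9 Rab-like genes, Ran included, 4 were tested, also with 2 of each. Ran, of nuclear transport, was at 16.1, 19.2 and 19.7 FPKM and at 57.1, 17.9 and 47.1, and passed without injured replicate 2.

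Without injured replicate 2, 0 of 56 members passed the adjusted threshold, whereas 3.52% of all genes were higher and 1.17% lower. At a p of 0.05 without adjustment, 6 members were higher (Rab11a, Rab25, Rab32, Rab34, Rab6 and Tbc1d2) and 3 lower (Rab2b, Rab3a and Rab4a), beside 17.5% and 6.78% of all genes. Groups separated for 16 higher members (28.6%, against 29.7% of all genes) and 5 lower ones (8.93%, against 14.4%). The smallest adjusted p was that of Rab3a, with a change of -1.21 ± 0.28 (limma adjusted p = 0.0610).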

How the data were processed

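RNA was measured in 6 libraries of sorted cells, 3 per group. A single table, genes by libraries, was deposited. The submitters' processing notes list FastQC, TopHat, Cuffdiff and mm9. The deposited values are taken here as FPKM, since Cuffdiff is named, but the table does not name the unit; the sources used here give no annotation, gene filter, scaling between libraries or strand handling. The lowest deposited FPKM, 0.001, may mark a failed estimate and stands in 4 members; those are given library by library. No steps of whole reads were found (at most 3.10% of ratios of 258 low genes agreed within 1%), so depth is unknown. 4108 blank rows were left out.

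Genes averaging 1 FPKM or more were tested with limma 3.58.1 (R 4.3.3) on log2(FPKM + 1), with trended, robust variances and adjustment by Benjamini-Hochberg over 7987 genes, injured against uninjured without covariates. The script was tested on simulated data with 7987 genes; it recovered 78.8% of changes of 3 on the log2 scale and made 2 false calls. No sets were tested. Members and lists were chosen with earlier results of these data known. Named with all values were, in each role, the 2 most abundant members and those whose groups do not overlap, then the 3 members with the smallest p in each direction and the widest injured range; the library pattern was chosen after values were seen. The replicate numbers were not taken as pairs of libraries, and no label used here says whether they are. Alternatives were the omission of each library, a replicate block, filters, scalings, pseudocounts and variance models; leaving out entries at 0.001 was added after the data were seen. Figures were drawn with matplotlib 3.10.9.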

Additional observations from a re-analysis of the deposited data

How the results depend on the processing

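In none of 17 alternatives did a member pass the adjusted threshold, and the 7 members whose changes were followed (Rab10, Rab11a, Rab27b, Rab2b, Rab3a, Rab6 and Tbc1d1) kept their direction wherever they were tested. The number of members whose groups do not overlap, 4 in all, was 8, 8 and 14 without uninjured replicates 1 to 3 and 10, 21 and 7 without injured replicates 1 to 3, fewer libraries being easier to separate; over the same omissions 15.9% to 29.7% of all genes stood apart higher and 8.40% to 14.4% lower. The median change of members, 0.17, was -0.0138 after upper-quartile scaling, 0.0178 after quantile normalization and 0.0102 without Mir703; that of all genes moved with it, from 0.16 to -0.0109, 0.0071 and 0.0152. Under those scalings non-overlapping members were 1 higher, Rab11a, and 4, 3 and 2 lower, and under the upper-quartile one 7.19% of all genes were higher and 11.4% lower. With the replicate number as a block, 0 members passed and the median change was 0.17, while 134 genes were higher and 87 lower. Same-numbered libraries had a Pearson r over all genes of 0.788, 0.83 and 0.803. After the mean of each gene in its group was subtracted, their correlations were -0.09, 0.07 and -0.08. The numbers were not taken as pairs in the main fit. Library quality weights gave 85 higher and 49 lower genes and limma without trend and robust steps 3 and 3. Without injured replicate 2, 278 and 92 genes passed. Overlap counts cannot change with the block, pseudocount or variance model by construction. Depth is unknown, so no counting error is given.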
